A study of Mus musculus with 6 samples.

Results

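The hexokinase, phosphofructokinase (PFK) and PFKFB isoforms control how fast glucose enters glycolysis. They were examined in HL-1 cells, a mouse cardiomyocyte line that began as an atrial tumour. The 10 genes named were Hk1, Hk2, Gpi1, Pfkl, Pfkm, Pfkp, Pfkfb1, Pfkfb2, Pfkfb3 and Pfkfb4. These genes were chosen with earlier results of these data known. Every probe set, a group of short probes on the array that measures 1 transcript region, whose annotation gave one of these symbols was taken, whatever its values. The annotation used here gave 17 probe sets of 1 symbol for 8 of the genes, of 45037 probe sets and 18193 genes in all. It gave no probe set for Gpi1, the isomerase between hexokinase and PFK, or for Pfkfb1, the isoform best known from liver and skeletal muscle. The expression of these 2 genes was not analysed here. A further probe set carried 6 symbols with Hk1 among them. It was tested but assigned to no gene.

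Confluent HL-1 cells were held for 8 hours at 1% oxygen (hypoxia, 3 arrays) or at 21% oxygen (normoxia, 3 arrays), with no other treatment given in the labels. HL-1 is a single immortalised line, so the results describe that line in culture. Nothing in the labels says that the 3 samples of a condition were separate cultures, so p-values cover no more than the scatter of these arrays, and that scatter may be technical. Values are MAS5 signals, the authors' summary of how brightly a probe set lit up, on a linear scale.

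Hexokinase phosphorylates glucose and so traps it in the cell. Hk1 is the widely expressed isoform, and Hk2 is the isoform of insulin-sensitive muscle and many tumours. PFK then commits the sugar to glycolysis, as tetramers of the muscle (Pfkm), liver (Pfkl) and platelet (Pfkp) subunits. The PFKFB enzymes make and break down fructose 2,6-bisphosphate, a strong activator of PFK. Pfkfb2 is the isoform known from heart, Pfkfb3 an inducible isoform with high kinase activity, and Pfkfb4 an isoform first known from testis. Several of these genes are textbook targets of the hypoxia-inducible factors (HIF), which bind the core letters ACGTG or GCGTG in DNA.

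The promoters of the genes with a probe set that rose, Pfkp, Hk2 and Pfkl, and of Pfkfb3, which is often named as a HIF target, are shown to place these letters beside the starts of isoforms that did and did not pass. Each sequence is the 250 bases before an annotated start site in RefSeq (build GRCm38.p6), 5′ to 3′ along the gene. Capitals mark ACGTG or GCGTG on either strand, where the other strand reads CACGT or CACGC.
Pfkp, chr13:6648772-6649021, minus strand: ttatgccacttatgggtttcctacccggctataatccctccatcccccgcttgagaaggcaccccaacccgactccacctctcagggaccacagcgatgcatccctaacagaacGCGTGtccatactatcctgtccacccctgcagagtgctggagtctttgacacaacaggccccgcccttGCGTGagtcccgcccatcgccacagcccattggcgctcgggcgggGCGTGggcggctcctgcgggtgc
Hk2, chr6:82774455-82774704, minus strand: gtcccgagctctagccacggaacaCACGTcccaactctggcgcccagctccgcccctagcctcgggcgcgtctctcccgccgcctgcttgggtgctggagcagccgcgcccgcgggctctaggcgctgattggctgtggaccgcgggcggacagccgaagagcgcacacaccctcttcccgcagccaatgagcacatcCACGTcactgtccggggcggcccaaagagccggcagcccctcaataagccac
Pfkl, chr10:78009808-78010057, minus strand: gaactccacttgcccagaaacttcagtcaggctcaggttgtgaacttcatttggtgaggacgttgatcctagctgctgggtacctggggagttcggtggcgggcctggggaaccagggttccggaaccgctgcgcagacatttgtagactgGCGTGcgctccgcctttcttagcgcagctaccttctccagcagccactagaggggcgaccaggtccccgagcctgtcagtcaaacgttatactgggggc
Pfkfb3 upstream start, chr2:11553930-11554179, minus strand: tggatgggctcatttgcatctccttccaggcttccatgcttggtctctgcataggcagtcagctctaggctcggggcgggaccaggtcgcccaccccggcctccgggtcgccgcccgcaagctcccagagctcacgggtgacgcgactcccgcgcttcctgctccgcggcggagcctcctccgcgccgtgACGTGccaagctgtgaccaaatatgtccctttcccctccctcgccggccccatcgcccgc
Pfkfb3 downstream start, chr2:11502091-11502340, minus strand: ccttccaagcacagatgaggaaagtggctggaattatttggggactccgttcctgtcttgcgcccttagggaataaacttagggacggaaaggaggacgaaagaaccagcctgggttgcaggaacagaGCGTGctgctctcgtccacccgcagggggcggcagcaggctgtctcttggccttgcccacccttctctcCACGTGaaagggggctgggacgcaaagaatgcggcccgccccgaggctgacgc
Pfkp held 3 matches in this window, Hk2 held 2 and Pfkl held 1. Pfkfb3 held 3 at its downstream start, of which 2 are the overlapping strands of CACGTG, and 1 at its upstream start. The matches of Pfkp and Pfkl were all GCGTG. Isoforms without a probe set that passed held such letters too. Counting overlapping strands, Hk1 held up to 3 in a window, Pfkm up to 2, Pfkfb2 up to 4 and Pfkfb4 1. Windows of Gpi1 and Pfkfb1, which had no probe set, were searched too, with no match for Gpi1 and 1 for Pfkfb1. Some windows of the same gene overlap. The motif lay in 9 of the 10 genes' windows, counting any start site, and in 14 of their 20 windows. Of all 32851 windows of this length in the RefSeq table, 38.6% held it. A match is a description of letters and not a binding site.

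Among the isoforms, the PFK subunit Pfkp and the hexokinase Hk2 rose in hypoxia, and Pfkl rose on one of its probe sets. Hk1, Pfkm, Pfkfb2, Pfkfb3 and Pfkfb4 had no probe set that passed the test. Change was tested with limma on log2 signals across 22518 probe sets, those in the brighter part of the array, and called at a Benjamini-Hochberg adjusted p under 0.05. Of the 17 member probe sets 16 were bright enough to be tested. Of these, 4 rose and 0 fell. The background over all tested probe sets was 0.533% higher and 0.0755% lower. In 5 of the 16, every hypoxic array was above every normoxic array, which held for 7.48% of all tested probe sets. Each gene was also represented by its brightest tested probe set. By that rule 2 of 8 genes rose and 0 fell, against 0.662% higher and 0.0882% lower among 11332 genes. The median log2 fold change of the 8 was 0.24, and that of all genes tested was -0.04.

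**Figure D1:**
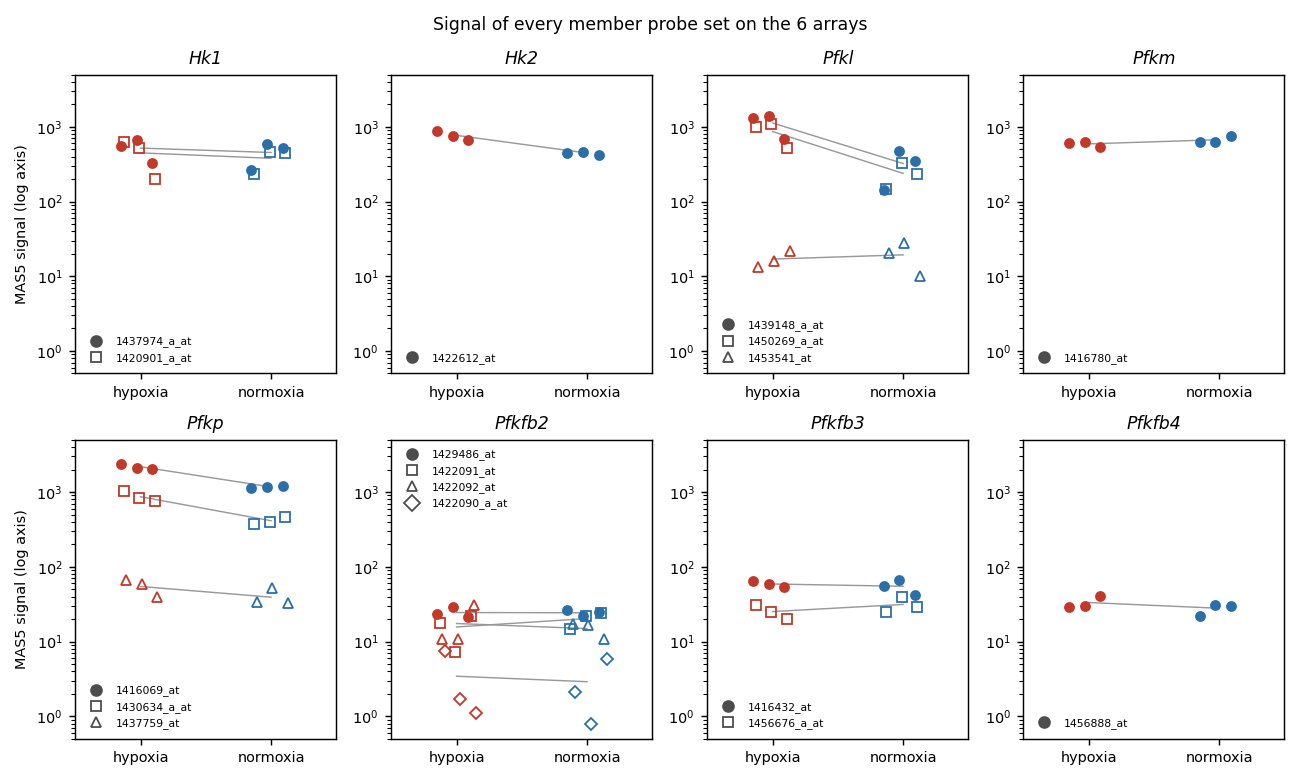
Signal of the 17 member probe sets (log axis, MAS5 signal) on the 3 hypoxic arrays (red, left) and the 3 normoxic arrays (blue, right), 1 panel per gene. Symbols mark probe sets, filled for the brightest, and grey lines join group means. Hk2, the brighter pair of Pfkl and the brighter pair of Pfkp lie higher in hypoxia on every array.

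Of the hexokinases, Hk2 rose and Hk1 did not pass. Hk2 had signals of 890 on hypoxia replicate 1, 747 on replicate 2 and 666 on replicate 3, against 449.6, 465 and 419 on normoxia replicates 1 to 3. The groups did not overlap. Its mean was 768 ± 113 in hypoxia and 445 ± 23.2 in normoxia (± is the SD of 3 arrays here and throughout), a 1.72-fold rise (log2 fold change 0.78, SE 0.14, limma adjusted p = 0.0476). The call lies close to the threshold, and Hk2 was called in 1 of the 6 fits with an array left out, the fit without hypoxia replicate 3 (adjusted p = 0.0328). In the other 5 its adjusted p lay between 0.064 without normoxia replicate 1 and 0.258 without normoxia replicate 3.

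Hk1 was measured by a pair of probe sets. The brighter, 1437974_a_at, had 558, 668 and 330.1 in hypoxia, against 261, 583 and 514 in normoxia. The groups overlapped, and hypoxia replicate 3 and normoxia replicate 1 were the low arrays of their groups. Its log2 fold change was 0.22 (95% interval -0.51 to 0.95, limma adjusted p = 0.843). The second, 1420901_a_at, had 624, 519 and 199.8 in hypoxia, against 234, 461 and 440.2 in normoxia, with the same arrays low. Its log2 fold change was 0.15 (adjusted p = 0.92). Neither interval excludes a rise of the size seen for Hk2. Without normoxia replicate 1 the log2 fold changes turned to -0.14 and -0.17. That of 1420901_a_at also turned negative without hypoxia replicate 1 (-0.17) and without hypoxia replicate 2 (-0.037). The difference between the changes of Hk2 and Hk1 was 0.56 log2, with an SD between arrays of 0.43 in hypoxia and 0.634 in normoxia (two-sided exact permutation test, p = 0.3, adjusted p = 0.525 over the 7 isoform pairs compared). It was 0.93 without normoxia replicate 1, and 0.36 without hypoxia replicate 3, 0.37 without normoxia replicate 2 or 0.39 without normoxia replicate 3.

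Among the PFK subunits, Pfkp had the change with the smallest standard error. Its brightest probe set, 1416069_at, had signals of 2407, 2114 and 2034 in hypoxia, against 1150.3, 1168 and 1193 in normoxia. The 3 normoxic arrays lay within a narrow band and all 3 hypoxic arrays were far above it. The rise was 1.86-fold (log2 fold change 0.90, SE 0.11, limma adjusted p = 0.00527). It was called in 5 of the 6 fits with an array left out. Without hypoxia replicate 1 its log2 fold change was 0.83 and its adjusted p was 0.0546.

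Pfkp had 2 further probe sets. Probe set 1430634_a_at had 1022, 828 and 749 in hypoxia, against 376, 404 and 461 in normoxia, again without overlap. Its log2 fold change was 1.06 (SE 0.15, limma adjusted p = 0.0155), and it was called in 2 of the 6 fits with an array left out, with adjusted p of up to 0.108. The dim 1437759_at had 66.4, 58.1 and 39.1 in hypoxia, against 33.3, 52.1 and 32.3 in normoxia, and the groups overlapped (log2 fold change 0.48, adjusted p = 0.595). Averaged over the 3 probe sets, Pfkp was higher by 0.81 log2 at an adjusted p of 0.0527.

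Pfkl had the largest fold changes of the isoforms and wide spread. Probe set 1439148_a_at, its brightest, had 1298, 1393 and 681 in hypoxia, against 141, 477 and 349.5 in normoxia. Every hypoxic array was above every normoxic array, but the normoxic arrays themselves spread widely, from replicate 1 at the bottom to replicate 2 at the top. The log2 fold change was 1.90 (SE 0.41, 95% interval 0.97 to 2.83), which did not pass (limma adjusted p = 0.0952). Array weights brought it under the threshold (adjusted p = 0.0174), as did centring each array on its median (0.02) and leaving out hypoxia replicate 3 (0.0442). In 13 of 17 alternatives it did not pass, with adjusted p of 0.284 without the variance trend and up to 0.372 without hypoxia replicate 1. Probe set 1450269_a_at had 997, 1078 and 516 in hypoxia, against 147, 331 and 235 in normoxia. It rose 3.65-fold (log2 fold change 1.87, SE 0.33, adjusted p = 0.0413). It was called in 3 of the 6 fits with an array left out. Its adjusted p was 0.246 in the fit that left out hypoxia replicate 1, 0.154 without hypoxia replicate 2, 0.167 without normoxia replicate 3 and 0.0661 with robust eBayes. The dim 1453541_at had 13.1, 15.9 and 21.9 in hypoxia, against 20.3, 27.5 and 10.2 in normoxia, with no separation (log2 fold change -0.11, adjusted p = 0.95).

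Pfkm, the muscle subunit, did not pass. It had signals of 613, 626 and 532 in hypoxia, against 634.5, 623 and 757 in normoxia. The groups overlapped, with a log2 fold change of -0.18 (limma adjusted p = 0.657). The 95% interval of -0.49 to 0.12 lies below the change of each bright Pfkp and Pfkl probe set. Within each array, Pfkp relative to Pfkm was higher in hypoxia by 1.08 log2, with an SD of 0.116 in hypoxia and 0.132 in normoxia (two-sided exact permutation p = 0.1, the smallest that 3 against 3 arrays can give, adjusted p = 0.35). Pfkl relative to Pfkm was higher by 2.08 log2 (SD 0.442 in hypoxia and 0.895 in normoxia, exact p = 0.1, adjusted p = 0.35). The change of Pfkl exceeded that of Pfkp by 1.00 log2 (SD 0.502 in hypoxia and 0.894 in normoxia), which was within the reach of the spread (exact p = 0.2, adjusted p = 0.467). That difference was 0.51 without normoxia replicate 1 and 0.41 with the probe sets of each gene averaged.

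**Figure D2:**
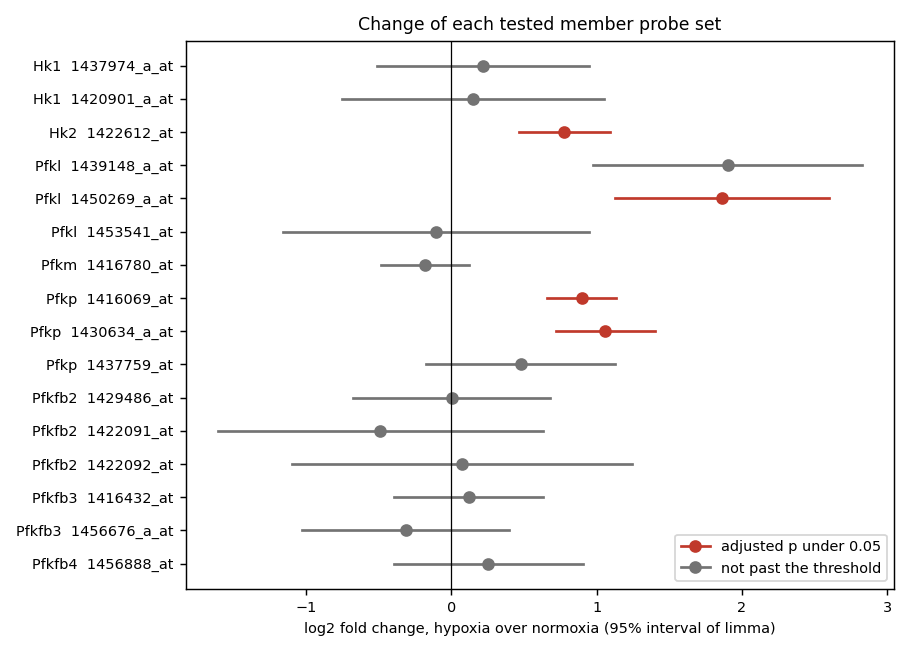
Log2 fold change of hypoxia over normoxia with its 95% interval from limma for the 16 tested member probe sets, red where the adjusted p was under 0.05. The called probe sets are those of Hk2, Pfkl (1 of 3) and Pfkp (2 of 3). The intervals of Pfkm and all PFKFB probe sets include 0.

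The spread of Pfkl was shared with Hk1. Deviations of log2 signal from the group mean correlated at 0.98 between the brightest probe sets of Pfkl and Hk1 over the 6 arrays, and at 0.96 between the bright pair of Pfkl. For Pfkl 1439148_a_at, hypoxia replicate 3 lay 0.65 log2 below its group mean and normoxia replicate 1 lay 1.02 below. For Hk1 1437974_a_at, the same arrays lay 0.59 and 0.71 below. These arrays also stood apart across the array as a whole. The leading principal component of these deviations over all tested probe sets held 42.3% of their variance and set those 2 arrays against the other 4. The deviations of the bright pair of Pfkl followed it at correlations of 0.96 and 0.98 and those of the Hk1 pair at 0.99 and 0.93. Hk2 followed it at 0.44, and the Pfkp probe sets 1416069_at, 1430634_a_at and 1437759_at at 0.44, 0.59 and 0.75. Of all tested probe sets, 15.5% had a correlation of 0.9 or more in size, so this covariation is common on these arrays. It is given as a description, since the deviations within a group sum to 0 and are few.

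With that component as a covariate, a fit added after the data were seen, Pfkl 1439148_a_at passed at an adjusted p of 2.44e-05 and 1450269_a_at at 7.5e-06, while Hk1 1437974_a_at did not (adjusted p = 0.277). The component was taken from the same arrays, so these p-values are too small. What made hypoxia replicate 3 and normoxia replicate 1 differ from the others was not tested.

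**Figure D3:**
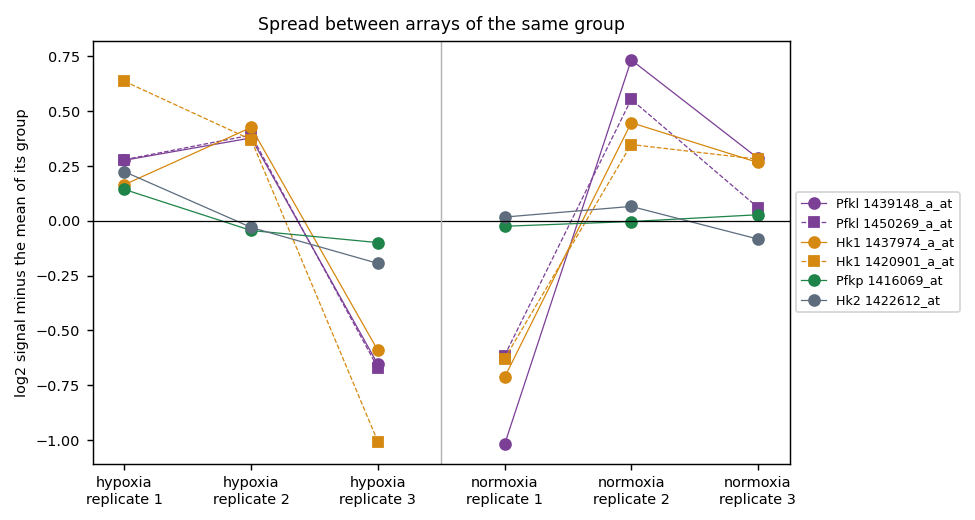
Log2 signal minus the mean of its own group on each of the 6 arrays, for the bright probe sets of Pfkl (purple), Hk1 (orange), Pfkp (green) and Hk2 (grey). Lines only guide the eye. Pfkl and Hk1 are lowest on hypoxia replicate 3 and normoxia replicate 1, while Pfkp 1416069_at stays within 0.14 log2 of its group mean.

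The PFKFB isoforms were dim and showed no separation between the conditions. Pfkfb3 probe set 1416432_at had signals of 65.1, 58.2 and 53.3 in hypoxia, against 56.1, 66.1 and 42.4 in normoxia. The groups overlapped, with a log2 fold change of 0.12 (95% interval -0.39 to 0.63, limma adjusted p = 0.882). Its mean lay at percentile 68.7 of all probe sets on the array. The second Pfkfb3 probe set, 1456676_a_at, had 31, 24.6 and 19.9 in hypoxia, against 25, 39.9 and 29.2 in normoxia (log2 fold change -0.31, adjusted p = 0.754). The pair thus differed in sign, and neither passed.

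Pfkfb4 had signals of 29.3, 29.8 and 40.7 in hypoxia, against 22.2, 31.1 and 30.3 in normoxia. The groups overlapped (log2 fold change 0.25, 95% interval -0.39 to 0.90, limma adjusted p = 0.782). Pfkfb2, the heart isoform, had 4 probe sets. Its brightest, 1429486_at, had 23.1, 28.8 and 21.4 in hypoxia, against 26.3, 21.8 and 24.7 in normoxia, with a log2 fold change of 0.00 (95% interval -0.68 to 0.68, adjusted p = 0.999). Probe sets 1422091_at and 1422092_at had log2 fold changes of -0.49 and 0.07 (adjusted p = 0.757 and 0.97), and their signals lay between 7.3 and 30.5 on all 6 arrays. The fourth, 1422090_a_at, had signals between 0.8 and 7.5 and was too dim to be tested.

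For the 3 PFKFB isoforms the 3 pairwise differences of change were at most 0.25 log2 (Pfkfb4 over Pfkfb2), with an exact permutation p of 0.5 or more. With an array left out they reached 0.45 for Pfkfb4 over Pfkfb2 (without hypoxia replicate 2) and 0.38 for Pfkfb4 over Pfkfb3 (without normoxia replicate 3). Averaging the probe sets of a gene gave 0.39 and 0.35. The 95% interval of the brightest probe set reaches about the size found for Hk2 in Pfkfb4. In all 3 it lies below the change of Pfkl 1450269_a_at. The intervals of dimmer Pfkfb2 probe sets were wider, down to -1.61 for 1422091_at and up to 1.24 for 1422092_at. An interval covers the scatter of these signals only. How well signals this dim follow the transcripts was not tested.

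Signals of different probe sets cannot be compared as levels, but each can be placed on the array. The brightest probe sets of Hk1, Hk2, Pfkl, Pfkm and Pfkp had mean signals at percentiles 92.7, 94.1, 93.8, 94.6 and 98.0 of all probe sets. Those of Pfkfb2, Pfkfb3 and Pfkfb4 were at 58.1, 68.7 and 60.9. The filter stood at the middle of the array, a geometric mean signal of 14.1.

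Lists of markers of this line and of other cell types were summed on each array. All 10 atrial cardiomyocyte markers were tested and 0 passed, where the background over genes was 0.662% higher and 0.0882% lower. Their summed signal lay between 37674 and 39958 on the hypoxic arrays and between 38820.5 and 41497 on the normoxic arrays. Of 24 markers of fibroblasts, endothelium, macrophages, skeletal muscle and liver, 10 were tested and 0 passed, and the summed level of each of these lists overlapped between the conditions. On single probe sets, 4 of the 20 tested markers did not overlap between the groups, 3 above (Nppa, Sln and Cd68) and 1 below (Myl4) in hypoxia, all named after their values were seen. Over all tested probe sets, 7.48% lay above without overlap and 9.06% lay below. Nppa, the atrial natriuretic peptide, had 1308 ± 260 in hypoxia and 791 ± 276 in normoxia (log2 fold change 0.76, limma adjusted p = 0.24), and Sln, sarcolipin, differed by 0.88 log2 (adjusted p = 0.231). Cd68, a macrophage marker, had 44.0 ± 4.97 in hypoxia and 20.2 ± 4.56 in normoxia (limma adjusted p = 0.157), and its part in the results was not tested. Summed skeletal muscle markers, of interest for Pfkm, lay between 78.4 and 134.8 in hypoxia and between 75.3 and 149.9 in normoxia. Summed liver markers, of interest for Pfkl, lay between 37.4 and 74.1 in hypoxia and between 54.2 and 70.5 in normoxia. Of the 3 liver markers with a probe set, 0 were bright enough to be tested, so that sum is of dim signals only. In bulk cultures, fewer cells of a type and less RNA per cell cannot be told apart. Median signals of the 6 arrays ranged from 15 to 19.

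The other genes of glucose metabolism were described from lists chosen with earlier results of these data known. Of 60 genes listed, 42 were tested and 6 rose, with 0 lower and a median log2 fold change of 0.08. The background over all genes was 0.662% higher and 0.0882% lower, with a median of -0.04. In lower glycolysis, 4 of 13 tested genes rose, with a median of 0.57. Tpi1, the triose phosphate isomerase, had 7093, 7595 and 6838 in hypoxia, against 3466, 3813 and 3879 in normoxia (log2 fold change 0.95, limma adjusted p = 0.00134). Ldha, which makes lactate, rose by 0.80 log2 (8335 ± 391 in hypoxia and 4804 ± 240.3 in normoxia, adjusted p = 0.00213), and Pgk1 by 0.57 (adjusted p = 0.0112). Aldoa, the next enzyme after PFK, rose by 0.58 (adjusted p = 0.0331) and was named after its value was seen. Pgam1 was higher by 0.49 log2 without passing (adjusted p = 0.0589).

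Members of lower glycolysis did not all move one way. Eno3, the muscle enolase, had 461.9, 405.4 and 373.7 in hypoxia, against 605.6, 902 and 809.8 in normoxia. The groups did not overlap, with hypoxia below, and the change did not pass (log2 fold change -0.89, limma adjusted p = 0.0603). It passed with array weights (adjusted p = 0.0121) and without normoxia replicate 1 (0.0156). In 14 of 17 alternatives it did not pass, with adjusted p of up to 0.291 without normoxia replicate 3. Bpgm, which makes 2,3-bisphosphoglycerate, was at -0.49 log2 (adjusted p = 0.411). Pkm had 2611.7, 2453.1 and 1604.6 in hypoxia, against 741.7, 1261.3 and 1131 in normoxia, above without overlap. Its change was larger than those of the called genes of this list and did not pass (log2 fold change 1.09, adjusted p = 0.0817). Eno3, Bpgm and Pkm were named after their values were seen. The call of Pgk1 was lost without the filter (adjusted p = 0.102), without the variance trend (0.258) and in 3 fits that left out 1 array, normoxia replicate 3 (0.0767), hypoxia replicate 1 (0.0901) and hypoxia replicate 2 (0.0555). The call of Aldoa was lost in 5 of the 6 fits with an array left out and held without hypoxia replicate 3 (adjusted p = 0.0392). It was also lost with quantile normalization (0.0698), without the filter (0.134) and with the filter at the 25th percentile (0.0562). The same held without the variance trend (0.287) and with the replicate block (0.0961), so that 10 of 17 alternatives lost it.

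In glucose uptake, 1 of 6 tested genes rose, the transporter Slc2a1 (log2 fold change 2.08, limma adjusted p = 0.00038), while Txnip, an inhibitor of uptake, showed 0.33 log2 and did not pass (adjusted p = 0.502). Slc2a4, the insulin-responsive transporter of muscle, named after its values were seen, had 149.1, 102.8 and 89 in hypoxia, against 165.6, 290.6 and 179.6 in normoxia, below without overlap and not passing (log2 fold change -0.89, adjusted p = 0.231). The dim Slc2a3, named likewise, was higher by 1.21 log2 with overlap and did not pass (adjusted p = 0.384). Among the branches from glucose and fructose phosphates, 1 of 15 rose, Pgm1, a phosphoglucomutase that links glucose 6-phosphate to glycogen (1067 ± 86.4 in hypoxia and 559 ± 18.3 in normoxia, log2 fold change 0.93, adjusted p = 0.0076). The median of these 15 was -0.04. Gys1, named after its values were seen, was higher by 1.21 log2 with overlap and did not pass (adjusted p = 0.304). The call of Pgm1 was lost without the variance trend (adjusted p = 0.109), without hypoxia replicate 1 (0.0846) and without normoxia replicate 3 (0.0617). Tkt, the pentose phosphate transketolase, was at -0.04 log2 (adjusted p = 0.932). Median centring turned its sign to 0.068.

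The enzymes that oppose or stand in for the isoforms did not pass. Tigar, a bisphosphatase that lowers fructose 2,6-bisphosphate, was the one of 6 opposing phosphatases with a probe set that was bright enough to be tested (log2 fold change -0.23, limma adjusted p = 0.724). Hk3 was the one such gene among 3 other hexokinases and glucokinase regulators, at 8.2, 24.9 and 12.8 in hypoxia, against 19, 26.4 and 11.1 in normoxia (adjusted p = 0.84). Among subunits of AMPK, the kinase that can activate PFKFB enzymes, 0 of 6 passed and their median was -0.20. Prkag2, the brightest, had 727, 744 and 759 in hypoxia, against 963, 945 and 922 in normoxia, without overlap (log2 fold change -0.34, adjusted p = 0.272).

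**Figure D4:**
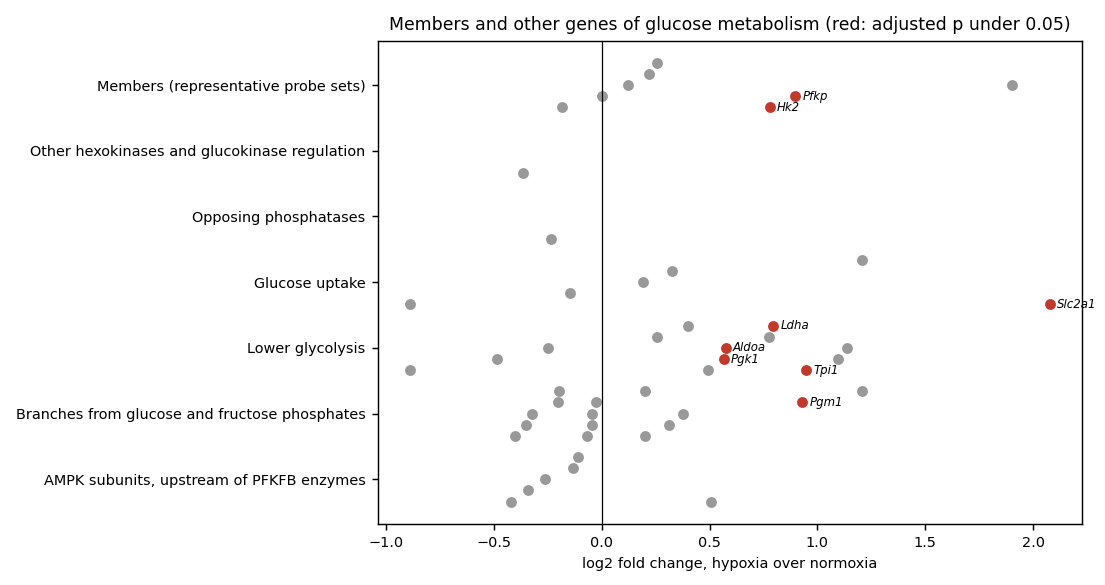
Log2 fold change of hypoxia over normoxia for the 8 member genes and the tested genes of 6 lists of glucose metabolism, each by its brightest probe set, with those at an adjusted p under 0.05 in red and named. Hk2 and Pfkp are called among the members, and the point near 1.90 is Pfkl.

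The genes most like each called isoform were found by the Pearson correlation of log2 signals over the 6 arrays. Closest to Hk2 were Ero1a, an oxidase of the endoplasmic reticulum (r = 0.997, 776 ± 241 in hypoxia and 242 ± 29.9 in normoxia, limma adjusted p = 0.0076), and the phosphatase Dusp1 (r = 0.995, adjusted p = 0.0613). Closest to Pfkp were Cp, which encodes ceruloplasmin (r = 0.999, 126 ± 8.62 in hypoxia and 84.3 ± 1.55 in normoxia, adjusted p = 0.213), and Pgm1 (r = 0.997). Of the 11332 genes tested, 249 had r over 0.9 with Hk2 and 284 with Pfkp. These r rest on 6 arrays. Both isoforms were taken because they were called between the conditions, so a high r can restate that difference.

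**Figure D5:**
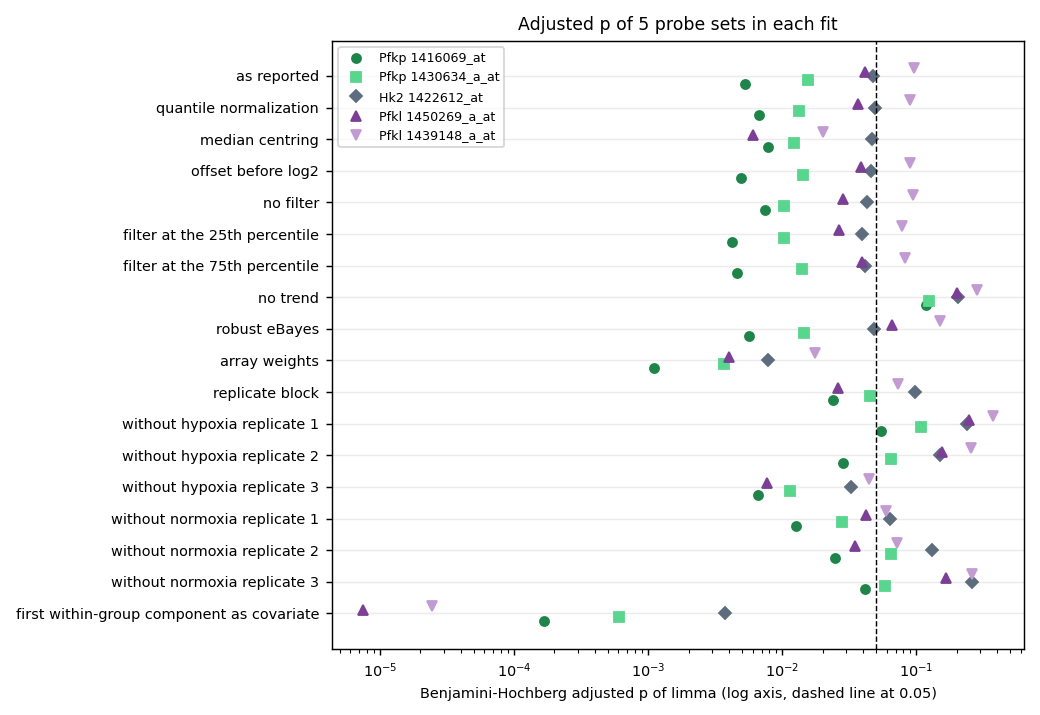
Benjamini-Hochberg adjusted p from limma (log axis, dashed line at 0.05) of 5 probe sets in the reported fit and 17 alternatives. Pfkp 1416069_at is under 0.05 in all but the fit without trend and the fit without hypoxia replicate 1, while Hk2 is above it in 7 alternatives.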

How the data were processed

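RNA from HL-1 cells in 2 conditions was hybridised to 6 Affymetrix mouse arrays, each with 1 colour. The authors deposited an intensity for each probe set on each array, a MAS5 signal per the submitters' processing notes, whose version is not given in the sources used here. Trimmed means (2% off each end) were 99.5 on all arrays, so no scaling was added. Zeros (10 values) were raised to 0.1, the smallest signal above 0, and log2 was taken. Probe sets above the median mean log2 signal were kept (22518). Hypoxia was compared with normoxia by limma 3.58.1 in R 4.3.3 (eBayes with trend, no covariates, two-sided), adjusted by Benjamini-Hochberg over the kept probe sets. The procedure was run on simulated arrays with independent noise for each probe set. Those lack the deviations that many probe sets share on the real arrays, so the simulation does not cover them. The number of arrays limits the precision. Symbols come from the platform annotation of 2016; 34945 probe sets had 1 symbol, 932 several and 9160 none.

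Members and lists were chosen with earlier results of these data known. Named genes were all member probe sets, up to 3 called genes and the brightest uncalled one per list, and the 2 genes most correlated with each called member. Alternatives changed scaling, offset, filter, variance model, weights, block, probe set rule and arrays used. The labels do not say that same-numbered arrays are pairs, and the reported fit did not treat them so. Deviations of same-numbered arrays correlated at -0.0763, 0.207 and -0.136. These values cannot decide whether the arrays were paired, since the deviations within a group are few and sum to 0. The replicate block was therefore 1 of the alternatives.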

Additional observations from a re-analysis of the deposited data

How the results depend on the processing

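The reported fit called 137 probe sets, 4 member probe sets, 2 member genes and 6 other glucose pathway genes. Without the variance trend these were 18, 0, 0 and 1. Array weights called 437 probe sets, and the main within-group direction as a covariate, chosen after seeing the data, 1066 probe sets and 12 pathway genes. With the replicate block, 1 member gene was called, Pfkp, as Hk2 had an adjusted p of 0.0968. Averaging the probe sets of a gene also left 1, Hk2, which has 1 probe set, so that averaging could not change its signals. Leaving out an array gave 39 to 201 probe sets, 0 to 5 member probe sets, 0 to 3 member genes and 3 to 7 pathway genes. The cause of these shifts was not tested.

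Of 517 values of single probe sets under the alternatives, 447 kept direction and side of the threshold, 39 lost the call, 12 gained it and 19 changed sign, none of these called. Most of these 31 probe sets were not called in the reported fit and could not lose a call. Of 17 alternatives each, the call was lost in 7 for Hk2 and 5 for Pfkl 1450269_a_at. For Pfkp it was lost in 2 for 1416069_at and 5 for 1430634_a_at. Pfkl 1453541_at turned to 0.0087 with quantile normalization, 0.0041 with median centring and 0.057 with array weights. Tkt turned to 0.068 with median centring and 0.056 with array weights. With an array left out, log2 fold changes ranged from -0.14 to 0.51 for Hk1 1437974_a_at, -0.17 to 0.65 for Hk1 1420901_a_at, -0.51 to 0.20 for Pfkl 1453541_at, -0.12 to 0.092 for Pfkfb2 1429486_at, -0.42 to 0.32 for Pfkfb2 1422092_at, -0.054 to 0.27 for Pfkfb3 1416432_at, -0.79 to 0.010 for Hk3 and -0.20 to 0.070 for Tkt. The isoform differences ranged from 0.51 to 1.37 for Pfkl over Pfkp, 0.36 to 0.93 for Hk2 over Hk1, 0.0085 to 0.45 for Pfkfb4 over Pfkfb2, -0.089 to 0.38 for Pfkfb4 over Pfkfb3 and -0.071 to 0.34 for Pfkfb3 over Pfkfb2. Median centring moved the median of all probe sets from -0.041 to 0.070.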
